A study of Mus musculus with 12 samples.

Results

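Of 32 astrocyte genes examined, all 15 that are known to be induced in astrocytes by injury were upregulated 24 h after intracerebral hemorrhage (ICH) in both young and aged mice, with median log2 fold changes (log2FC) of 1.778 and 1.503. Of the 17 genes of homeostatic astrocytes, 2 were upregulated in young mice, 0 in aged mice and 0 were downregulated at either age. Of all genes tested, 8.66% and 7.24% were upregulated and 3.49% and 2.82% downregulated in young and aged mice. The median log2FC of the 17 genes was 0.24 and −0.03. Regardless of the fold, 7 were higher and 0 lower in young ICH at an adjusted *P* under 0.05 (edgeR; 9.89% and 9.23% of all genes). In aged ICH 2 were higher and 2 lower (7% and 6.15%). The 32 genes were listed by symbol as known astrocyte genes. No measured value was a criterion, but earlier results of these data were known when the list was drawn up. All 32 were found once among the 54833 genes of the table and passed the filter on low counts.

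The samples were perihematomal tissue of the ipsilateral caudate putamen of wild-type male C57BL/6 mice, dissected at 24 h and sequenced in 12 libraries, 3 for each of 4 groups. The young animals had an age of 8 to 10 weeks, the aged ones of 20 to 22 months. ICH mice received type IV collagenase into the basal ganglia, an enzyme that opens vessel walls, whereas sham mice of either age received saline in the same surgery, so that every sham sample also carried a needle wound. Each sample pooled tissue from 2 or 3 mice, and the numbers that distinguish the 3 samples of a group do not tie samples across groups.

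Libraries held 28410896 to 37785160 counts on genes. Values are given as CPM, the counts scaled to a common normalised library size, in the order of replicates 1, 2 and 3. Differences are log2FC ± SE from edgeR's quasi-likelihood test over all 21495 genes tested, and a gene is called upregulated or downregulated, as a DEG was in the study, at a fold change over 1.5 or under 0.67 with an unadjusted *P* under 0.05. The *P* adjusted over all genes tested is given beside it. The homeostatic astrocyte genes, which serve as the check of this cell type, were present in every library, with 6518 to 8208 CPM in sum. Genes of striatal neurons, which mark the labelled tissue, were also present throughout but uneven, at 347 to 3097 CPM in sum. Choroid plexus genes, which mark a tissue outside the caudate putamen, exceeded 1000 CPM in sum in young ICH replicate 3 and aged ICH replicates 1 and 2. In bulk tissue, fewer astrocytes and less RNA per astrocyte cannot be told apart.

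Astrocytes clear glutamate and potassium from the synapse, couple to each other through gap junctions and line vessels with their end-feet. After injury they become reactive: they enlarge, build up intermediate filaments and secrete protease inhibitors and matrix-binding proteins. Cytokines of the interleukin-6 family drive much of this change through the transcription factor STAT3, for which *Gfap* is a known target. Reactive genes are often sorted into pan-reactive genes, A1-type genes seen after endotoxin and A2-type genes seen after ischemia. Of the induced genes here, *Gfap*, *Vim*, *Serpina3n*, *Steap4*, *S1pr3* and *Aspg* are pan-reactive, and *Tgm1*, *Emp1*, *Cd109*, *Ptx3*, *Sphk1*, *Slc10a6*, *Tm4sf1*, *Clcf1* and *S100a10* are A2-type.

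Since STAT3 binds a short palindrome, the promoters of the genes were searched for it. RefSeq promoter windows of 300 bases (250 before the start and 50 after it, build GRCm38.p6) were at hand for 27 of the 32 genes, with several starts for some, and *Cd109*, *Clcf1*, *S100a10*, *Sox9* and *Atp1b2* had none. The letters TTCNNNGAA, searched on both strands, stood in windows of 5 induced genes (*Gfap*, *Emp1*, *Sphk1*, *Steap4*, *Tgm1*) and of 5 homeostatic genes (*Acsbg1*, *Agt*, *Aldoc*, *Ntsr2*, *Slc1a3*). They were in 6 of 18 induced windows, 5 of 17 homeostatic windows and 8.30% of all 32851 windows. The AP-1 letters TGANTCA stood in 3 induced windows, 1 homeostatic window and 7.81% of all, and the C/EBP letters TTGCNNAA in 3, 4 and 10.8%. Overlapping windows of *Sphk1* hold the same STAT match (at −115 and −41) and the same AP-1 match (at −124 and −50). Each of these matches is counted once per window. The share of windows with the STAT letters was thus 33.3% for the induced and 29.4% for the homeostatic genes. Such a match is a description of the sequence and not a binding site. The first 280 bases of 6 of these windows, for 4 induced genes and 2 homeostatic genes with the STAT letters, are printed 5′ to 3′ with the matches to the STAT, AP-1 and C/EBP letters in capitals. In Gfap the match lies across the start site, in Emp1 the second AP-1 match runs into the second STAT match, and Tgm1 and Aldoc hold the STAT letters at 2 places.
Gfap (chr11:102897171-102897450, minus strand): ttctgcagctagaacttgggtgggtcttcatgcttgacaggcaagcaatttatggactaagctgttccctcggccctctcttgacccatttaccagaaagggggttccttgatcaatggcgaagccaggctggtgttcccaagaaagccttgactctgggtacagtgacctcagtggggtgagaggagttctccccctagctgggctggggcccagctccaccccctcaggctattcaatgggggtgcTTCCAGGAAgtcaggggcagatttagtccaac
Emp1 (chr6:135362681-135362960, plus strand): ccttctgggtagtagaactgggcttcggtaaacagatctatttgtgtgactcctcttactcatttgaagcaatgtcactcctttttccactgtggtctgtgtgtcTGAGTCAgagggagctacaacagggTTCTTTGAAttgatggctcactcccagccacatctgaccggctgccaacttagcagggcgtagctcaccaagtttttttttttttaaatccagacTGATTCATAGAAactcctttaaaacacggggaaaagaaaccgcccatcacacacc
Steap4 (chr5:7960222-7960501, plus strand): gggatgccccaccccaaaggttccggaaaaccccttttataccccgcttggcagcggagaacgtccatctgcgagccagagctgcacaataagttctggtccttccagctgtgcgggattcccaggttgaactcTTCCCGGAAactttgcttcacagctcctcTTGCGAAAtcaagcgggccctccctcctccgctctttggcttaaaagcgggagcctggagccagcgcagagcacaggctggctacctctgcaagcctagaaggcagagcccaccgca
Tgm1 (chr14:55713463-55713742, minus strand): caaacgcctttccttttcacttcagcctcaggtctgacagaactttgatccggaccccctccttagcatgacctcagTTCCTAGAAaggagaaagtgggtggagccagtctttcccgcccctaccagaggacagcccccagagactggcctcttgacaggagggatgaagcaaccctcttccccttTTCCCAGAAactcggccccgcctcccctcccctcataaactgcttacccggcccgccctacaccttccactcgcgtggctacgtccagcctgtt
Aldoc (chr11:78323948-78324227, plus strand): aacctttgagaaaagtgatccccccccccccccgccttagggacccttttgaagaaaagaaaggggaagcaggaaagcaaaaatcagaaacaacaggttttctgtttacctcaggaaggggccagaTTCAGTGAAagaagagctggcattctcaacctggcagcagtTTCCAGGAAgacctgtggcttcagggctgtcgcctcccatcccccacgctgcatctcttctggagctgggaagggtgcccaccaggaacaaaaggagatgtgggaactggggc
Acsbg1 (chr9:54661856-54662135, minus strand): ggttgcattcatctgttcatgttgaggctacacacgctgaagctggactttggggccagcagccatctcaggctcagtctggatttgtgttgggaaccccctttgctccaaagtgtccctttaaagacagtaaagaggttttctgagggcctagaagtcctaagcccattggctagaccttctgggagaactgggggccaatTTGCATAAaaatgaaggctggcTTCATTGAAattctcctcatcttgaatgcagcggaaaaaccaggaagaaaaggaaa

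Per transcript length, the homeostatic genes stood well above most induced genes in sham tissue. In young sham samples the mean FPKM, a level per length and depth computed by the authors, was 448 for *Glul* (glutamine synthetase, which turns glutamate into glutamine), 251 for *Slc1a2* (the main glutamate transporter) and 197 for *Aldoc* (the astrocyte aldolase of glycolysis). The induced gene with the highest level was *Gfap*, the intermediate filament protein of astrocytes, at 157 FPKM, in the 4th place of the 32 genes. *Serpina3n* followed at 55.7, whereas *Emp1*, *Clcf1*, *Sphk1*, *Cd109* and *Slc10a6* closed the order at 0.937, 0.681, 0.630, 0.311 and 0.179. With ICH *Gfap* moved up in this order. It passed *Slc1a2* at both ages, and passed *Glul* (441 FPKM in young ICH, 396 in aged ICH) in aged ICH alone. *Gfap* had a mean of 418 FPKM in young ICH and 447 FPKM in aged ICH samples, against 216 and 215 FPKM for *Slc1a2*, and *Serpina3n* reached 295 and 306.

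The filament genes rose together. *Gfap* (chr11:102887336-102900912) measured 694, 563 and 811 CPM in young sham, 1602, 1481 and 2105 in young ICH, 1028, 450 and 1010 in aged sham and 1996, 1576 and 1891 in aged ICH. All ICH samples lay above all sham samples of both ages. The log2FC was 1.33 ± 0.27 in young mice (edgeR, adjusted *P* = 0.00705) and 1.13 ± 0.27 in aged mice (edgeR, adjusted *P* = 0.0201). *Vim*, the filament protein that is joined to *Gfap* in reactive cells and is also made by endothelial and other cells, measured 71.5, 53.8 and 72.5 CPM in young sham, 175, 176 and 263 in young ICH, 85.5, 55.5 and 130 in aged sham and 259, 218 and 227 in aged ICH. It rose by 1.63 ± 0.26 and 1.38 ± 0.26 (edgeR, adjusted *P* = 0.00276 and 0.00891). The ratio of group means was 2.51 and 2.20 for *Gfap* and 3.10 and 2.60 for *Vim* in young and aged mice.

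Secreted proteins rose further. *Serpina3n*, a secreted inhibitor of serine proteases, measured 108, 98.5 and 153 CPM in young sham, 537, 488 and 765 in young ICH, 227, 47.4 and 219 in aged sham and 705, 527 and 595 in aged ICH. The ICH samples of both ages were far above the sham samples, and the 3 aged sham samples differed among themselves by more than the young ones did. Its log2FC was 2.31 ± 0.45 in young and 1.89 ± 0.44 in aged mice (edgeR, adjusted *P* = 0.00581 and 0.0193). The other genes of the Serpina3 cluster, whose near-identical copies could share reads with it, stayed at or under 5.32 CPM in every library.

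*Ptx3*, a long pentraxin of innate immunity, measured 4.61, 7.52 and 13.3 CPM in young sham, 41.6, 55.3 and 75.7 in young ICH, 17.4, 0.708 and 28.0 in aged sham and 75.7, 60.1 and 103 in aged ICH. It had the least precise estimates among the induced genes, with log2FC of 2.77 ± 0.76 (edgeR, adjusted *P* = 0.0274) and 2.36 ± 0.74 (edgeR, adjusted *P* = 0.0558). *Clcf1*, a ligand of the interleukin-6 family that signals through the ciliary neurotrophic factor receptor, measured 2.71, 3.17 and 2.05 CPM in young sham, 10.6, 15.7 and 18.2 in young ICH, 6.39, 3.00 and 8.38 in aged sham and 28.8, 17.03 and 25.4 in aged ICH. It rose by 2.49 ± 0.35 in young and 1.998 ± 0.33 in aged mice (edgeR, adjusted *P* = 0.00187 and 0.00597). The lowest aged ICH value of *Clcf1* was above all but 1 of the young ICH values.

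Enzymes made up the next group. *Tgm1*, a transglutaminase that cross-links proteins, measured 7.65, 14.3 and 15.1 CPM in young sham, 94.8, 97.2 and 155 in young ICH, 22.7, 1.28 and 40.4 in aged sham and 146, 94.9 and 155 in aged ICH. This was a rise of 3.23 ± 0.74 in young and 2.61 ± 0.71 in aged mice (edgeR, adjusted *P* = 0.0118 and 0.0334). *Steap4*, a metalloreductase that reduces iron and copper, measured 5.80, 6.53 and 11.7 CPM in young sham, 37.2, 49.7 and 93.6 in young ICH, 4.34, 1.21 and 14.97 in aged sham and 31.7, 27.8 and 28.8 in aged ICH. Its log2FC was 2.91 ± 0.63 in young and 2.09 ± 0.62 in aged mice (edgeR, adjusted *P* = 0.0095 and 0.0471). *Steap4* was the only induced gene for which every aged ICH sample lay below every young ICH sample. This was 1 of 15 genes, near the 6.42% of all genes for which it held.

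*Sphk1*, the kinase that makes sphingosine 1-phosphate, measured 2.68, 3.77 and 2.97 CPM in young sham, 9.37, 10.9 and 9.96 in young ICH, 4.204, 3.41 and 5.18 in aged sham and 11.2, 8.33 and 12.3 in aged ICH. It rose by 1.68 ± 0.19 and 1.31 ± 0.19, the lowest adjusted *P* of the 15 induced genes at either age (edgeR, 0.00108 and 0.00441). *S1pr3*, a receptor for the product of that kinase, rose by 1.78 ± 0.36 and 1.503 ± 0.36 (edgeR, adjusted *P* = 0.00697 and 0.0202). *Aspg*, an asparaginase, rose by 1.34 ± 0.20 and 0.96 ± 0.20 (edgeR, adjusted *P* = 0.00212 and 0.0117). The enzyme and the receptor of its product were thus both upregulated at both ages.

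Membrane proteins completed the set. *Emp1*, an epithelial membrane protein, measured 5.44, 5.202 and 6.76 CPM in young sham, 20.0, 27.3 and 35.5 in young ICH, 10.4, 4.42 and 11.8 in aged sham and 41.4, 28.4 and 40.0 in aged ICH, a rise of 2.25 ± 0.32 and 2.04 ± 0.31 (edgeR, adjusted *P* = 0.00187 and 0.00505). *Slc10a6*, a transporter of sulfated steroids, had the largest log2FC of the 32 genes at both ages, 3.63 ± 0.45 and 2.88 ± 0.42 (edgeR, adjusted *P* = 0.00137 and 0.00454). Its level was low, with 7 to 17 counts per library in young sham, 130 to 177 in young ICH, 6 to 40 in aged sham and 133 to 199 in aged ICH. *Tm4sf1*, a small membrane protein also found in endothelial cells, rose by 1.65 ± 0.33 and 1.30 ± 0.32 (edgeR, adjusted *P* = 0.00645 and 0.0235), and *S100a10*, the partner of annexin A2 at the plasma membrane, by 1.04 ± 0.16 and 0.98 ± 0.16 (edgeR, adjusted *P* = 0.00244 and 0.00559). *Cd109*, a membrane-anchored binder of TGF-beta, measured 3.29, 0.920 and 2.51 CPM in young sham, 3.89, 5.66 and 9.36 in young ICH, 2.12, 2.16 and 4.34 in aged sham and 7.39, 6.70 and 6.79 in aged ICH. It rose by 1.48 ± 0.43 (edgeR, adjusted *P* = 0.0345) and 1.27 ± 0.43 (edgeR, adjusted *P* = 0.0721).

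**Figure D1:**
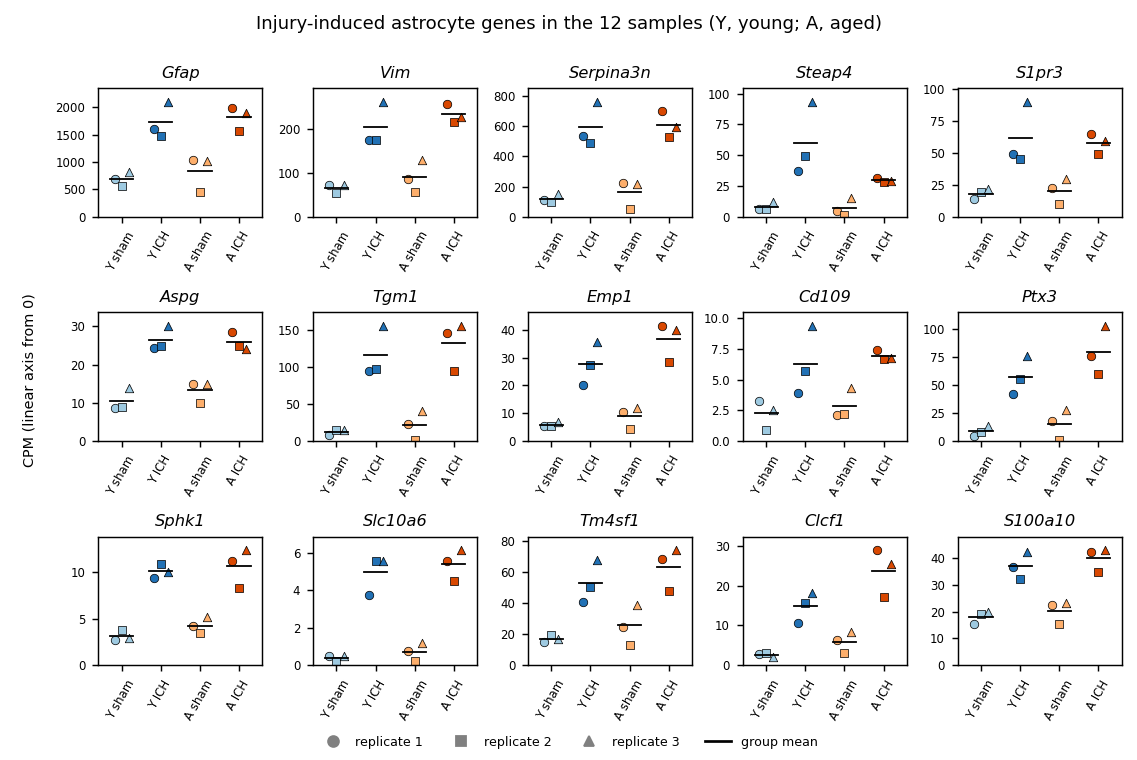
CPM (linear axis from 0) of the 15 injury-induced genes in each of the 12 samples, with 1 panel per gene, the marker shape giving the replicate and a line giving the group mean. In every panel the 3 ICH samples of an age lie above the 3 sham samples of that age, and aged sham replicate 2 (square) is the lowest aged sham sample for 14 of 15 genes.

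Counted over the set, 15 of 15 induced genes were called upregulated in young ICH vs. young sham, where 8.66% of all genes tested were, and all 15 also passed at an adjusted *P* under 0.05 (5.88% of all genes). In aged ICH vs. aged sham 15 of 15 were upregulated (7.24% of all genes) and 13 passed the adjusted threshold (4.15% of all genes), the exceptions being *Cd109* and *Ptx3*. The 3 ICH samples lay above the 3 age-matched sham samples for 15 of 15 genes at both ages, which held for 18.5% of all genes in young and 17.8% in aged mice. The median log2FC over all genes was 0.02 in young and 0.0018 in aged mice. Within the set, the pan-reactive genes had medians of 1.71 and 1.44 and the A2-type genes 2.25 and 1.998 in young and aged mice. Without the 3 libraries rich in choroid plexus genes, which left 1 aged ICH sample that is assumed to vary like the other groups, 15 genes were upregulated in young and 14 in aged mice.

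Homeostatic genes moved little. In young ICH 13 of 17 had a log2FC above 0 (52.7% of all genes), and in aged ICH 8 of 17 (50.3%). *Aldh1l1*, a folate enzyme used as a general marker of astrocytes, measured 66.2, 64.3 and 75.5 CPM in young sham, 103, 116 and 110 in young ICH, 70.8, 60.3 and 73.2 in aged sham and 107, 91.6 and 99.1 in aged ICH. It was upregulated in young mice at 0.68 ± 0.09 (edgeR, adjusted *P* = 0.00159), and its 0.54 ± 0.09 in aged mice (edgeR, adjusted *P* = 0.00599) stayed under the fold limit. *Sox9*, a transcription factor that specifies astrocytes, measured 35.3, 29.6 and 35.0 CPM in young sham, 56.0, 48.7 and 70.6 in young ICH, 44.2, 37.4 and 46.5 in aged sham and 74.2, 61.2 and 55.2 in aged ICH. Its log2FC was 0.81 ± 0.15 in young mice, which was a call (edgeR, adjusted *P* = 0.00433), and 0.57 ± 0.15 in aged mice, just under the fold limit (edgeR, adjusted *P* = 0.0261). For both genes the ICH samples did not overlap the sham samples at either age.

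Of the glutamate handling genes, *Slc1a2* and *Glul* had a log2FC below 0 after ICH at both ages and *Slc1a3* above 0. *Slc1a2* measured 3167, 3846 and 3315 CPM in young sham, 2536, 3270 and 2563 in young ICH, 3337, 3384 and 3638 in aged sham and 2693, 2929 and 2552 in aged ICH. The groups overlapped in young mice by 1 sample and did not overlap in aged mice, and the log2FC of −0.30 ± 0.12 and −0.34 ± 0.12 missed the adjusted threshold (edgeR, adjusted *P* = 0.09 and 0.0753). *Glul* measured 1678, 1478 and 1502 CPM in young sham, 1501, 1457 and 1355 in young ICH, 1486, 1878 and 1552 in aged sham and 1311, 1317 and 1184 in aged ICH. Its log2FC was −0.11 ± 0.10 in young (edgeR, adjusted *P* = 0.47) and −0.37 ± 0.10 in aged mice (edgeR, adjusted *P* = 0.0326). *Slc1a3*, the second glutamate transporter of astrocytes, had 0.24 ± 0.10 and 0.05 ± 0.10 (edgeR, adjusted *P* = 0.112 and 0.797).

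Among the coupling and end-foot genes, *Gja1*, the main astrocyte gap junction connexin, measured 215, 173 and 155 CPM in young sham, 172, 161 and 172 in young ICH, 153, 219 and 172 in aged sham and 133, 134 and 113 in aged ICH. Its log2FC was −0.11 ± 0.14 in young (edgeR, adjusted *P* = 0.633) and −0.51 ± 0.14 in aged mice (edgeR, adjusted *P* = 0.032), so that the aged ICH samples were the lowest of the 12. *Gjb6*, the second astrocyte connexin, measured 63.9, 51.8 and 62.2 CPM in young sham, 87.3, 89.0 and 66.0 in young ICH, 50.01, 56.9 and 58.2 in aged sham and 59.2, 55.9 and 57.0 in aged ICH. It differed by 0.45 ± 0.11 in young mice (edgeR, adjusted *P* = 0.0203) and by 0.06 ± 0.11 in aged mice (edgeR, adjusted *P* = 0.777). *Mlc1*, a membrane protein of the end-feet, had 0.32 ± 0.08 and 0.05 ± 0.08 (edgeR, adjusted *P* = 0.0218 and 0.742). *Atp1b2*, the beta subunit of the sodium pump found in astrocytes, had 0.52 ± 0.10 and 0.26 ± 0.10 (edgeR, adjusted *P* = 0.00556 and 0.108).

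*Acsbg1*, an acyl-CoA synthetase for long-chain fatty acids, measured 121, 121 and 107 CPM in young sham, 158, 144 and 146 in young ICH, 126, 143 and 135 in aged sham and 138, 129 and 129 in aged ICH. It was 0.36 ± 0.07 higher in young ICH (edgeR, adjusted *P* = 0.00501) and at −0.03 ± 0.07 in aged ICH (edgeR, adjusted *P* = 0.846). *Id3*, a transcriptional inhibitor induced by bone morphogenetic proteins, had 0.56 ± 0.15 and 0.09 ± 0.15 (edgeR, adjusted *P* = 0.026 and 0.733). *S100b*, a calcium-binding protein, had 0.26 ± 0.11 and −0.06 ± 0.11 (edgeR, adjusted *P* = 0.126 and 0.74). The remaining 5 homeostatic genes, *Aldoc*, *Fgfr3* (a fibroblast growth factor receptor), *Ntsr2* (a neurotensin receptor), *Slc7a10* (a transporter of small neutral amino acids) and *Agt* (angiotensinogen), ranged from −0.15 to 0.22 in young and from −0.48 to 0.01 in aged mice, with adjusted *P* of 0.0721 or more (edgeR). Reads of *Slc7a10* could be shared with *Lrp3* on the opposite strand, which reached 73.4 CPM, since no strand setting is given in the sources used here.

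**Figure D2:**
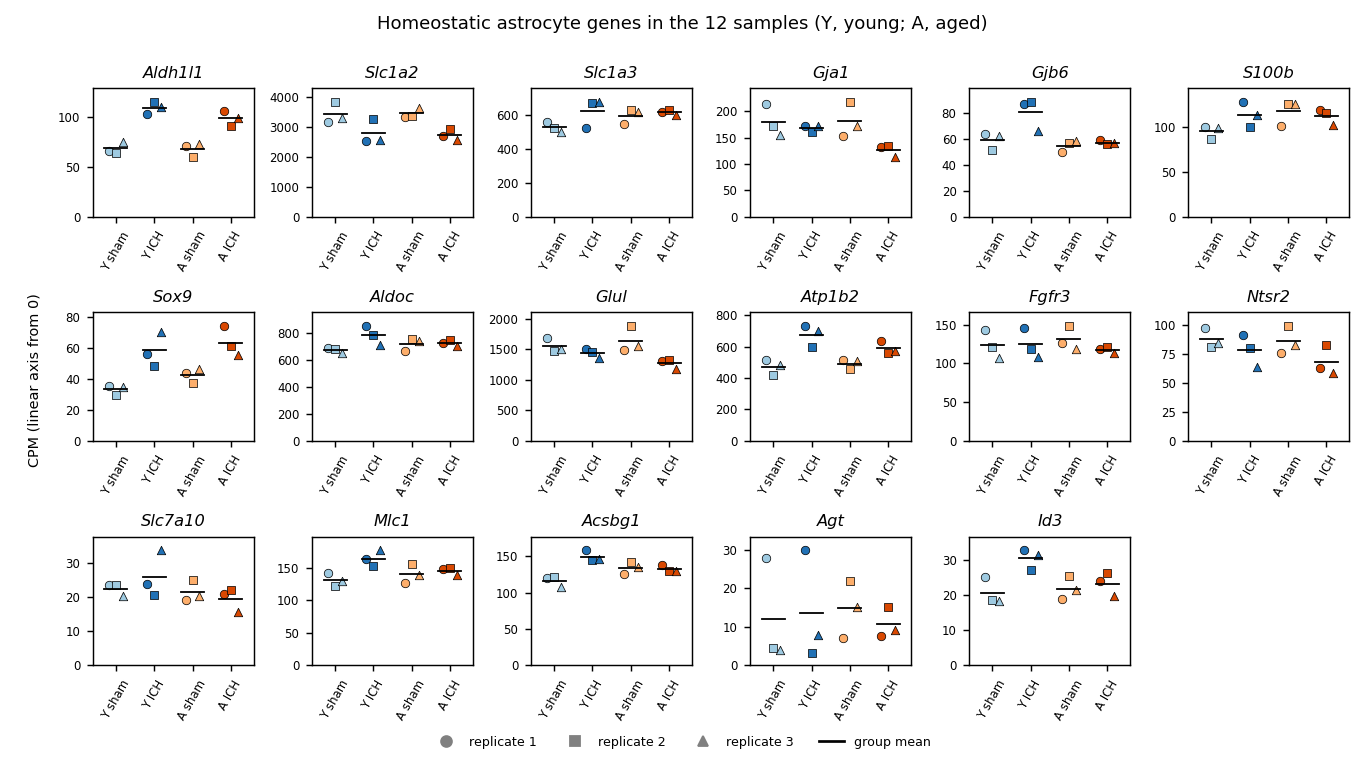
CPM (linear axis from 0) of the 17 homeostatic genes in each of the 12 samples, drawn as for the induced genes. Sham and ICH samples lie close together in most panels, *Aldh1l1*, *Sox9* and *Atp1b2* are higher in ICH at both ages, and *Agt* spreads widely within every group.

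As a set, 2 of 17 homeostatic genes (*Aldh1l1* and *Sox9*) were upregulated in young ICH and 0 downregulated (8.66% and 3.49% of all genes), and in aged ICH 0 were upregulated and 0 downregulated (7.24% and 2.82% of all genes). Regardless of the fold, 7 of 17 were higher in young ICH at an adjusted *P* under 0.05 (9.89% of all genes) and 0 lower (9.23% of all genes): *Aldh1l1*, *Gjb6*, *Sox9*, *Atp1b2*, *Mlc1*, *Acsbg1* and *Id3*. In aged ICH 2 were higher, *Aldh1l1* and *Sox9* (7% of all genes), and 2 lower, *Gja1* and *Glul* (6.15% of all genes). Genes of other cell types were lower in the same comparison: 5 of 10 oligodendrocyte genes were downregulated in aged ICH (median −0.46) and 0 of 10 in young ICH (median −0.02), and 0 of 10 striatal neuron genes had a log2FC above 0 at either age (medians −1.11 in aged and −0.95 in young mice, 1 downregulated at each age). Their part in the homeostatic values was not tested. The 3 ICH samples lay above the 3 sham samples for 8 homeostatic genes in young mice (18.5% of all genes) and for 3 in aged mice (17.8%), and below them for 0 in young (16.5%) and 3 in aged mice (17.3%). Leaving out single libraries moved these counts: *Atp1b2* and *Id3* were added in young ICH without young ICH replicate 2 (0.60 and 0.64), *Sox9* was called in aged ICH when either of aged sham replicates 1 and 3 or of aged ICH replicates 2 and 3 was left out (0.60 to 0.67), *Aldh1l1* without aged sham replicate 3 or aged ICH replicate 2 (0.60 and 0.59), and *Gja1* without aged sham replicate 1 (−0.62). No homeostatic gene came near the median rise of the induced genes at either age, and the highest homeostatic log2FC, that of *Sox9* in young mice, was below the lowest induced log2FC in young mice, 1.04 for *S100a10*.

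**Figure D3:**
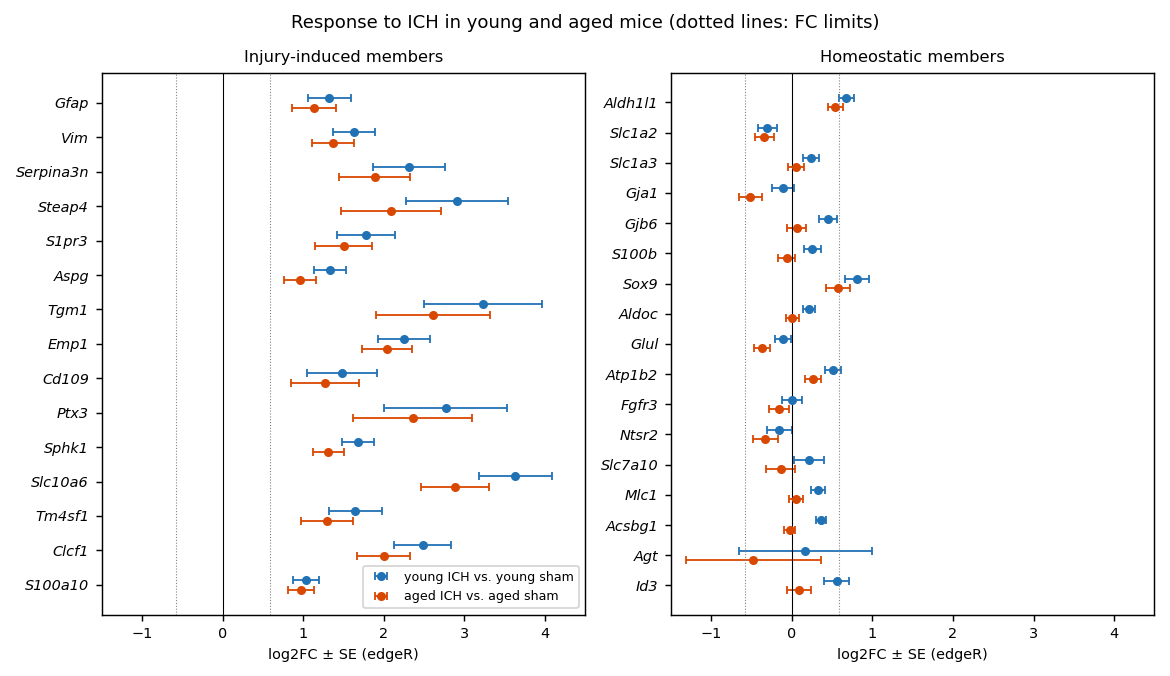
log2FC ± SE (edgeR) of the 15 injury-induced genes (left) and the 17 homeostatic genes (right) for ICH vs. sham in young (blue) and aged mice (orange), with dotted lines at the fold limits. All induced genes lie to the right of the upper limit at both ages, with medians of 1.778 and 1.503. The homeostatic genes lie between −0.30 and 0.81 in young and between −0.51 and 0.57 in aged mice, with medians of 0.24 and −0.03.

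Age alone was examined in sham mice. Of the induced genes, 1 of 15 was upregulated in aged sham vs. young sham (2.82% of all genes), *Clcf1* at 1.17 ± 0.35 (edgeR, adjusted *P* = 0.242). Of the 15, 14 had a log2FC above 0 (51.7% of all genes), with a median of 0.45 against 0.0089 over all genes. The 3 aged sham samples disagreed. Aged sham replicate 3 lay above all 3 young sham samples for 15 of 15 induced genes and replicate 1 for 13, whereas replicate 2 was the lowest of its group for 14 and lay below all young sham samples for 9. The share of all genes with such a place in a single sample was not counted, so these counts have no background beside them. Averaged over the induced genes, the difference in log2 CPM from the young sham mean was 0.57, −0.89 and 1.06 in aged sham replicates 1, 2 and 3, and −0.13, −0.12 and 0.26 in the young sham samples. As a result *Tgm1* had 0.81 ± 0.71, *Ptx3* 0.87 ± 0.75, *Slc10a6* 0.87 ± 0.50 and *Serpina3n* 0.45 ± 0.43, none of which passed (edgeR, adjusted *P* = 0.685, 0.679, 0.505 and 0.711).

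Without aged sham replicate 2, 8 of 15 induced genes were upregulated in aged sham mice (3.13% of all genes in that fit), namely *Clcf1*, *Emp1*, *Ptx3*, *Serpina3n*, *Slc10a6*, *Tgm1*, *Tm4sf1* and *Vim*. Their log2FC ran from 0.71 for *Vim* to 1.48 for *Clcf1*, and 0 passed an adjusted *P* under 0.05 (edgeR, lowest adjusted *P* = 0.0958, for *Clcf1*). Leaving out aged sham replicate 3 had the opposite effect: the median log2FC was 0.11, with *Vim* at 0.096, *Ptx3* at 0.11 and *Tgm1* at −0.036, 1 gene was called higher (*Clcf1*, 0.83; 2.14% of all genes) and 1 lower (*Steap4*, −1.52; 1.02% of all genes). The size of the age difference in the induced genes thus rested on single samples. Aged sham replicate 2 had the lowest sum over 7 other pan-reactive genes of the 12 samples (67.3 CPM, against 91.0 to 190 in the other sham samples) and the lowest sum over 17 genes of the STAT3 pathway (623 CPM, against 662 to 777). Its monocyte and macrophage genes were also the lowest (47.3 CPM, against 50.9 to 72.6), whereas its sum over the homeostatic astrocyte genes was the highest of the 12 samples (8208 CPM). Averaged over those 17 genes, its difference in log2 CPM from the young sham mean was 0.24. That was the highest of the sham samples but below the 0.38 of young ICH replicate 1. Over all 3 aged sham samples, genes of some other cell types also differed from young sham. Upregulated were 6 of 8 neutrophil genes (median 2.01) and 3 of 5 red blood cell genes (median 1.58), against 2.82% of all genes. So were 3 of 12 monocyte and macrophage genes (median 0.18). At an adjusted *P* under 0.05 (edgeR) 0 of these passed, and neutrophil genes summed to at most 26.9 CPM in aged sham. Of the homeostatic microglia, endothelial, fibroblast and mural, and oligodendrocyte genes 0 were upregulated, with medians of 0.15, 0.02, 0.08 and −0.14. The part of these differences in the result was not tested.

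**Figure D4:**
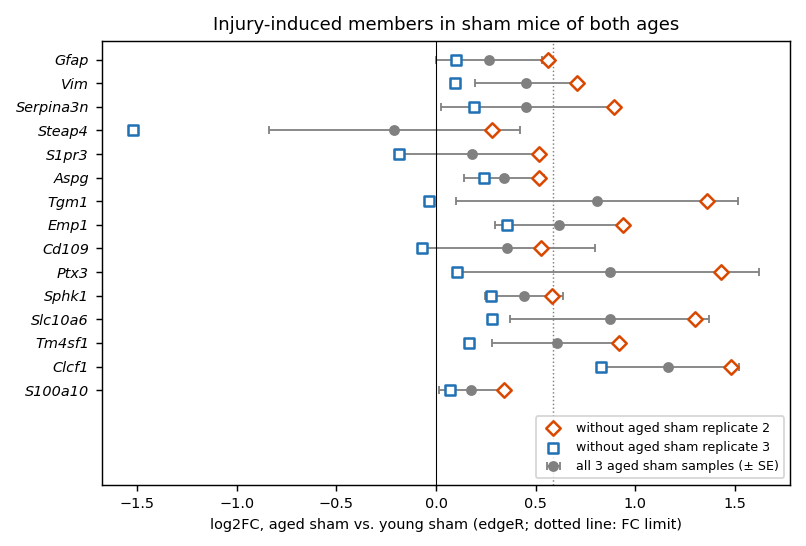
log2FC (edgeR) of the 15 injury-induced genes in aged sham vs. young sham, with all 3 aged sham samples (grey, ± SE), without aged sham replicate 2 (open diamonds) and without aged sham replicate 3 (open squares), and a dotted line at the upper fold limit. Every gene moves to the right without replicate 2, with 8 genes called higher, and to the left without replicate 3, with 1 called higher and 1 lower.

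Homeostatic genes differed little between sham mice of both ages, by a median of 0.08. Of the 17, 0 were upregulated and 0 downregulated (2.82% and 0.898% of all genes; edgeR), and 3 were higher at an unadjusted *P* under 0.05 (6.56% of all genes), each with samples that did not overlap (9.81% of all genes): *S100b* (0.30 ± 0.11; edgeR, adjusted *P* = 0.309), *Sox9* (0.36 ± 0.15; 0.354) and *Acsbg1* (0.21 ± 0.07; 0.266). DESeq2 also called 0 of them.

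Between the ICH groups, few differences in the induced genes exceeded the spread of the samples. In aged ICH vs. young ICH 0 of 15 were upregulated and 0 downregulated (2.21% and 1.3% of all genes), and 0 had an unadjusted *P* under 0.05 (edgeR; 9.54% of all genes), with a median log2FC of 0.12. *Steap4* was at −1.03 ± 0.58 (edgeR, adjusted *P* = 0.614) and *Clcf1* at 0.68 ± 0.32 (edgeR, adjusted *P* = 0.534), and these were the ends of the range. DESeq2 called 1 of the 15 upregulated, *Clcf1* at 0.67. Young ICH replicate 3 was the highest of its group for 14 of 15 induced genes and aged ICH replicate 2 the lowest of its group for 14 of 15. Both were among the 3 libraries rich in choroid plexus genes. The share of all genes that were highest or lowest in these samples was not counted. Without young ICH replicate 3, *Steap4* was at −0.56. *Clcf1* was called without young ICH replicate 3 (0.85), aged ICH replicate 2 (0.87) or either of aged sham replicates 2 and 3 (0.68), and *Steap4* without either of the same sham samples (−1.03). The sham samples are in neither group of this comparison and enter it through the shared spread, the filter and the normalisation.

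Homeostatic genes were more often lower in aged ICH. Of the 17, 0 were upregulated and 0 downregulated (2.21% and 1.3% of all genes). A log2FC below 0 was seen for 16, while 48.96% of all genes were above 0. At an unadjusted *P* under 0.05, 5 were lower (4.86% of all genes): *Gjb6* (−0.49 ± 0.11; edgeR, adjusted *P* = 0.191), *Gja1* (−0.41 ± 0.14; 0.385), *Acsbg1* (−0.18 ± 0.07; 0.446), *Id3* (−0.39 ± 0.15; 0.454) and *Slc7a10* (−0.42 ± 0.18; 0.503). For 6 of 17 the aged ICH samples lay below all young ICH samples (6.42% of all genes), namely *Gja1*, *Gjb6*, *Glul*, *Mlc1*, *Acsbg1* and *Id3*. The median log2FC was −0.18, against −0.0046 over all genes. *Gjb6* was called without young ICH replicate 3 (−0.62). Other cell types differed between these groups in both directions. Of 10 oligodendrocyte genes 6 were downregulated in aged ICH vs. young ICH, with a median log2FC of −0.59, and their sum was 4534 to 5261 CPM in aged ICH and 6037 to 7951 CPM in young ICH. Of 12 fibroblast and mural genes 4 were downregulated (median −0.18), whereas 3 of 8 neutrophil genes were upregulated (median 0.74) and homeostatic microglia genes had a median of 0.06. The part of tissue makeup in the homeostatic astrocyte values was not tested.

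The interaction of age and ICH (the aged log2FC less the young log2FC) was below 0 for all 32 genes, with medians of −0.37 for the induced and −0.26 for the homeostatic genes, while 48.9% of all genes were above 0 and the median over all genes was −0.0051. By the fold and *P* limits 0 of 32 were called (edgeR; 0.484% of all genes higher, 1.08% lower), 0 passed the adjusted threshold (0% of all genes), and 3 had an unadjusted *P* under 0.05 (2.82% of all genes). Of these, *Acsbg1* was at −0.39 ± 0.10 (edgeR, adjusted *P* = 0.99991). For the induced genes the standard errors ran from 0.23 to 1.02. *Serpina3n* was at −0.42 ± 0.61 and *Slc10a6* at −0.75 ± 0.62, so that differences in response of this size were not detectable here. DESeq2 gave all 32 below 0 as well. The common sign was not stable against single libraries: 28 of 32 were below 0 without young ICH replicate 3 and 22 of 32 (6 of the 15 induced) without aged sham replicate 3. It was 25 of 32 without the libraries rich in choroid plexus genes. Without aged sham replicate 2, 3 induced genes were called lower, *Serpina3n* (−0.86), *Slc10a6* (−1.18) and *Tgm1* (−1.17), against 1.11% of all genes in that fit, with an adjusted *P* near 1 (edgeR, 0.99995). The 32 values share the same 12 samples and are not independent.

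**Figure D5:**
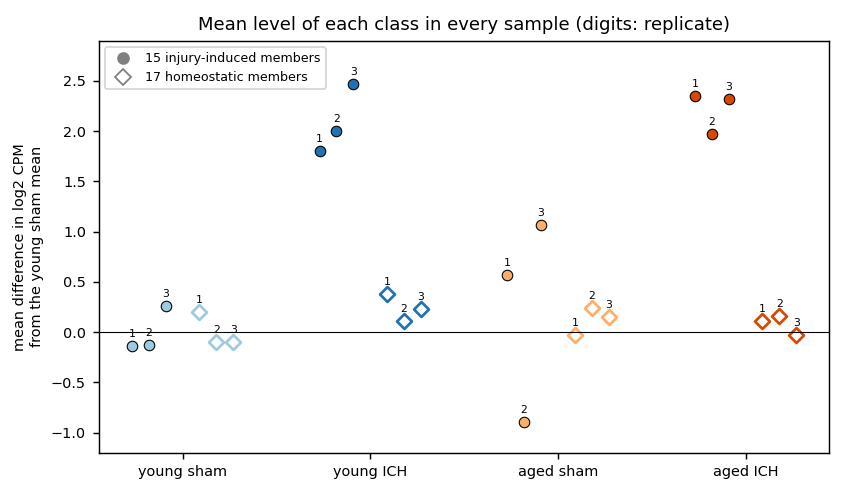
Mean difference in log2 CPM from the young sham mean over the 15 injury-induced genes (filled circles) and over the 17 homeostatic genes (open diamonds) in each sample, with digits giving the replicate. The induced genes lie at 1.80 to 2.47 in the ICH samples and at −0.89 to 1.06 in the sham samples, whereas the homeostatic genes stay between −0.10 and 0.38 in all 12 samples.

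The other reactive astrocyte genes moved with the induced genes. For the counts below, 8.66% of all genes were upregulated in young ICH and 7.24% in aged ICH. Of 7 further pan-reactive genes, 6 were upregulated in young and 7 in aged ICH, among them *Lcn2* (a secreted iron-siderophore binder) at 3.10 ± 0.52 and 2.88 ± 0.52, *Hspb1* (a small heat shock protein) at 2.44 ± 0.35 and 2.68 ± 0.34, and *Timp1* (an inhibitor of matrix metalloproteinases) at 2.44 ± 0.35 and 2.40 ± 0.35. Of 3 further A2-type genes 2 and 3 were upregulated. A1-type genes were not spared: of 12 tested, 10 were upregulated at each age, with medians of 1.08 and 1.08, among them *Srgn* (a granule proteoglycan also abundant in leukocytes) at 1.68 ± 0.19 and 1.74 ± 0.19 and *Amigo2* (an adhesion protein) at 1.19 ± 0.17 and 0.95 ± 0.17. In aged ICH vs. young ICH 3 of the 12 were upregulated (2.21% of all genes), with a median of 0.38, and 0 passed an adjusted *P* under 0.05 (edgeR). *C3*, the complement component often used as an A1 marker, spread too widely to be called, with 15.99, 11.9 and 220 CPM in young ICH and 53.1, 65.7 and 12.003 in aged ICH. Its 3 highest values were those of the libraries rich in choroid plexus genes. *C3* was named after its values were seen.

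Genes of the STAT3 pathway, which lies upstream of *Gfap*, were upregulated in 10 of 16 tested at each age (8.66% and 7.24% of all genes in young and aged ICH). Of the 16, 0 were called downregulated (3.49% and 2.82% of all genes), and 12 and 13 had a log2FC above 0 (52.7% and 50.3%). The ligands *Il6* (2.50 ± 0.49 and 2.97 ± 0.44), *Lif* (2.14 ± 0.54 and 1.31 ± 0.49), *Osm* (2.65 ± 0.73 and 2.19 ± 0.60) and *Il11* (3.08 ± 0.49 and 2.57 ± 0.44) rose from levels at or under 4.97 CPM in every sham sample. Among receptors, *Osmr* rose by 1.73 ± 0.24 and 1.43 ± 0.24 and *Il6ra* by 1.14 ± 0.10 and 0.85 ± 0.10, whereas *Il6st*, the shared signalling subunit, had 0.33 ± 0.10 and 0.22 ± 0.10 and *Lifr* −0.12 ± 0.08 and −0.10 ± 0.08. *Stat3* itself measured 83.8, 88.5 and 105 CPM in young sham, 174, 181 and 210 in young ICH, 116, 80.5 and 134 in aged sham and 219, 193 and 214 in aged ICH. It rose by 1.03 ± 0.16 and 0.93 ± 0.16 (edgeR, adjusted *P* = 0.00224 and 0.00612). Its feedback inhibitor *Socs3* rose by 2.17 ± 0.40 and 1.81 ± 0.39 and the transcription factor *Cebpd* by 2.09 ± 0.36 and 2.12 ± 0.35 (edgeR). Between the ages, *Il6* and *Lif* were upregulated in aged ICH vs. young ICH (2 of 16, against 2.21% of all genes). *Osmr*, *Lif* and *Il11* were upregulated in aged sham vs. young sham (3 of 16, against 2.82%). Of these calls 0 passed an adjusted *P* under 0.05 (edgeR). Aged sham replicate 2 was the lowest sham sample for *Stat3*, *Socs3* and *Cebpd*, as it was for most induced genes.

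Further homeostatic genes had few calls by the fold limit, as the 17 did. Regardless of the fold, they were more often higher in young ICH and more often lower in aged ICH. Of 28 such genes, 1 (*Aqp4*, the water channel of the end-feet, 0.61 ± 0.14) was upregulated and 1 (*Hes5*, a Notch target, −0.87 ± 0.32) downregulated in young ICH (8.66% and 3.49% of all genes), with a median of 0.14. In aged ICH 0 were upregulated and 3 downregulated (7.24% and 2.82% of all genes), with a median of −0.23. The 3 were *Cldn10*, *Grin2c* and *Slc15a2*, at −0.92 ± 0.19, −0.68 ± 0.26 and −0.61 ± 0.19. At an adjusted *P* under 0.05, 5 of the 28 were lower and 1 higher in aged ICH (edgeR; 6.15% and 7% of all genes). For 10 the aged ICH samples lay below all aged sham samples (17.3% of all genes), and for 4 above them (17.8%). In young ICH 0 were lower and 7 higher at that threshold (9.23% and 9.89% of all genes), and 4 lay below and 9 above (16.5% and 18.5%). The genes named here were picked after their values were seen. Of 12 transcription factors of astrocytes 0 were upregulated at either age (8.66% and 7.24% of all genes). Of these 12, 0 were downregulated in young ICH and 1 (*Id4*, −0.90 ± 0.37) in aged ICH (3.49% and 2.82% of all genes). Of 5 genes known to induce the A1 state (*Il1a*, *Tnf*, *C1qa*, *C1qb* and *C1qc*) 0 were called at either age, although the 3 C1q genes were higher at an adjusted *P* under 0.05 in both (edgeR).

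Several induced genes are also made by other cells, and genes of those cells moved with ICH. The background for the calls below was 8.66% of all genes upregulated in young ICH and 7.24% in aged ICH. Downregulated were 3.49% and 2.82% of all genes. Neutrophil genes summed to 11.3 to 13.9 CPM in young sham, 22.0 to 39.8 in young ICH, 16.2 to 26.9 in aged sham and 40.2 to 56.1 in aged ICH, and 7 of 8 tested were upregulated at each age, with *Elane* at 0 in both young groups. Monocyte and macrophage genes summed to 50.9 to 57.3, 99.7 to 126, 47.3 to 72.6 and 117 to 153 CPM, and 9 and 8 of 12 were upregulated, with 1 downregulated in aged ICH. Endothelial genes, which bear on *Vim*, *Tm4sf1* and *Emp1*, summed to 386 to 453, 500 to 523, 402 to 459 and 453 to 545 CPM, with 5 and 3 of 12 upregulated, 1 downregulated in aged ICH, and medians of 0.49 and 0.24. Fibroblast and mural genes had medians of 0.51 and 0.14 (2 and 1 of 12 upregulated). *Gfap*, at 1481 to 2105 CPM in ICH samples, exceeded the whole sum of any of these 4 lists. *Vim*, *Tm4sf1* and *Emp1* stayed at or under 263, 74.1 and 41.4 CPM in every library, below the endothelial sum. Such sums do not give the share of a cell type in another gene. The part of these cells in the induced genes was not tested.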

How the data were processed

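RNA-seq of perihematomal caudate putamen was analysed in 12 libraries, 3 pooled samples for each of 4 groups taken from the labels. The authors aligned reads with HISAT2 to GRCm38.p6 and counted them per gene with featureCounts of the Subread package (strand and multimapping settings are not given in the sources used here), and the deposited table holds raw counts and FPKM for each sample. Counts were used for every test and FPKM only to order levels between genes. Depth was 28410896 to 37785160 counts per library.

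Counts were normalised by TMM and filtered with filterByExpr (minimum count 10), which kept 21495 of 54833 genes, and 1 model with 4 groups was fitted with the quasi-likelihood functions of edgeR (version 4.0.16 under R 4.3.3, with limma 3.58.1). SE was the log2FC divided by the square root of F. Calls took the study's limits (fold over 1.5 or under 0.67, unadjusted *P* under 0.05), and Benjamini-Hochberg *P* was adjusted over all genes tested. DESeq2 1.42.0, other size factors, no filter, the compared groups alone, a replicate block, the adjusted threshold and single left-out libraries were alternatives. Leaving out the libraries with over 1000 CPM of choroid plexus genes was added after seeing the data. The test was checked on simulated counts. The members and lists were chosen with earlier results of these data known, with no measured value as a criterion for the members. Named were all 32 members and, of each wider astrocyte or cell type list, up to 4 genes called in both ICH comparisons by smallest *P*, and any gene of the STAT3 pathway. Outside this rule, *Aqp4*, *Hes5*, *Cldn10*, *Grin2c*, *Slc15a2*, *Id4*, *C3* and *Elane* were also named. So were the genes known to induce the A1 state and the genes correlated with *Agt*. Nothing in the sources says that samples came from separate cohorts beyond the pools, so *P* values measure the spread between these samples.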

Additional observations from a re-analysis of the deposited data

Results flagged for a closer look

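The ICH response of 3 homeostatic genes differed between young and aged mice in the interaction test at an unadjusted *P* under 0.05 (2.82% of all genes). *Acsbg1* was at −0.3871 (log2 scale, the aged response less the young one), *Gjb6* at −0.3864 and *Mlc1* at −0.2738, all from edgeR, with an adjusted *P* of 0.99991 for each. In all 3 genes every young ICH sample lay above every young sham sample (18.5% of all genes), and the aged ICH and aged sham samples overlapped. These are the same values that gave the interaction, so they are no further support for it.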

How the results depend on the processing

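A chosen set of 83 results on single genes, not all results of the 32 genes, was followed under 1487 alternatives. Of these, 1437 kept direction and side of the threshold, 40 passed it newly, 1 lost it and 9 turned sign, and the cause was not tested. The tally leaves out *Steap4* in aged sham and *Tgm1* in the interaction, which were called lower when 1 library was left out, as given above. All 15 induced genes were called in young ICH under every alternative, and in aged ICH under all but the adjusted threshold (13) and the removal of the libraries rich in choroid plexus genes (14, with *Cd109* at 1.24). That removal also gave 1 lower homeostatic gene in aged ICH, 2 in aged vs. young ICH and 1 in the interaction, and turned *Id3* (−0.14) and *Mlc1* (−0.0076) in aged ICH.

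With 1 library left out, homeostatic calls ranged from 2 to 4 higher in young ICH, 0 to 2 higher and 0 to 1 lower in aged ICH, 0 to 1 higher in aged sham, 0 to 1 lower in aged vs. young ICH and 0 to 1 lower in the interaction. Induced calls ranged from 1 to 8 higher and 0 to 1 lower in aged sham, 0 to 1 higher and 0 to 1 lower in aged vs. young ICH and 0 to 3 lower in the interaction. Values near 0 turned sign: *Gja1* in young ICH (−0.21 to 0.036), *Tgm1* in aged sham (−0.036 to 1.36) and, in aged ICH, *Acsbg1* (−0.069 to 0.019), *Gjb6* (−0.0046 to 0.10), *Id3* (−0.0056 to 0.21), *Mlc1* (−0.018 to 0.13) and *Slc1a3* (−0.013 to 0.085).

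In aged sham, induced genes called higher were 3 without the filter, 2 with DESeq2 and 0 by adjusted *P*. In aged vs. young ICH, 1 was higher without the filter, with the compared groups alone and with DESeq2, and 1 lower in the first 2 of these. The replicate block left the counts at 15 induced genes higher in each ICH comparison, 2 and 0 homeostatic genes higher and 1 induced gene higher in aged sham. Samples share only a number: of 18 same-numbered pairs, 5 had deviations correlated above 0.1 (−0.454 to 0.235). The interaction needs all 4 groups and was not run on fewer. With 3 pools per group, SEs of 0.16 to 0.76 for induced genes in young ICH limit what can be detected.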

Other observations

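*Agt*, the astrocyte gene for angiotensinogen, varied far more within groups than the other homeostatic genes. It measured 27.8, 4.60 and 3.86 CPM in young sham, 29.8, 3.06 and 7.94 in young ICH, 7.05, 22.0 and 15.2 in aged sham and 7.61, 15.1 and 9.11 in aged ICH. Over the 12 samples, and leaving out unnamed gene models, its log2 CPM was most like that of *Arhgap24* (Pearson r = 0.926), *Lhfpl3* (0.913) and *Lhx9* (0.912), with *Slc17a6*, a vesicular glutamate transporter of neurons, at 0.880. *Slc17a6* measured 46.6, 27.9 and 23.3 CPM in young sham, 92.0, 22.0 and 35.2 in young ICH, 30.8, 46.0 and 46.4 in aged sham and 24.0, 36.9 and 28.6 in aged ICH, and was highest in the libraries where *Agt* was highest in both young groups. These correlations are descriptions over samples that share library composition, and the genes were chosen after their values were seen.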
